A study of Homo sapiens with 6 samples.

Results

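The PDGF and VEGF ligands and receptors were examined as 10 genes chosen by symbol, out of 21293 genes in a table of normalized counts from 6 RNA-seq libraries. They comprise the platelet-derived growth factors PDGFA, PDGFB and PDGFC, their receptors PDGFRA and PDGFRB, the vascular endothelial growth factors VEGFA, VEGFB and VEGFC, and the receptors KDR and FLT1. The cells were H2087-LCC, a latency competent cancer (LCC) population, meaning dormant metastatic cells recovered from mice, derived from the RAS-mutant stage I lung adenocarcinoma line H2087. All 3 groups were grown in medium with 2% serum. The SB group, the baseline, received 2.5 μM SB505124 for 3 days, a compound that blocks TGFβ signalling at its type I receptor kinase. The other groups received 100 pM TGFβ for 3 days or for 7 days. Each group had 2 libraries, which the study describes as technical replicates, so that p-values measure the spread between these libraries and not between independent cultures. The SB libraries were taken at 3 days, so in the 7-day comparison with SB the effects of TGFβ and of time in culture cannot be told apart.

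PDGFs are secreted dimers that bind 2 related receptor tyrosine kinases. PDGFRα binds the A, B and C chains and PDGFRβ binds mainly the B and D chains, and both drive proliferation and migration of mesenchymal cells such as fibroblasts and pericytes. VEGFA is the principal angiogenic factor, is induced by low oxygen, and acts on endothelial cells through KDR (VEGFR2) and FLT1 (VEGFR1). VEGFB binds FLT1, and VEGFC acts mainly on the lymphatic receptor FLT4. Epithelial tumor cells are known mostly as a source of the ligands, and PDGFRβ is commonly described in carcinoma cells that have undergone an epithelial-to-mesenchymal transition, a program that TGFβ can induce.

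The values were read counts per gene that the authors had scaled by library size, called normalized counts here, and the libraries summed to between 34306283 and 36340734 of them, with 1 read worth 0.896 to 1.10 normalized counts. Replicates of the SB group differed more than those of the treated groups, with an SD of the log2 difference between replicates of 0.268 for SB, 0.195 for 3 days and 0.174 for 7 days over 11389 genes. Of the 10 genes, 8 had a mean of at least 10 and were tested among 14395 genes. VEGFC and FLT1 were not tested. PDGFB passed this minimum only through the TGFβ groups, where it was high, so its being tested already favoured a rise, and its call lends no support to the counts below. Differences are of log2(normalized count + 1), tested with limma (a linear model that shares information on the spread between genes) and adjusted over all 14395 genes. A gene is said to have risen or fallen where the adjusted p was below 0.05.

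The promoters of 3 genes whose RNA differed between the groups are shown because PDGFA and PDGFRB rose with TGFβ while KDR fell. RefSeq promoter windows (GRCh38.p14) were matched for 7 of the 10 genes, in 11 windows, with none for VEGFA, PDGFB or PDGFC. The 250 bases before the start are printed 5′ to 3′ on the gene's strand. Capitals mark GGGCGG, the core of the GC box bound by SP1-type factors, or its reverse complement CCGCCC. PDGFA has 4 listed starts, whose windows had a GC content of 68.8%, 81.6%, 68.8% and 75.6%, and the window with the highest is shown.
PDGFA, chr7:519847-520096, minus strand: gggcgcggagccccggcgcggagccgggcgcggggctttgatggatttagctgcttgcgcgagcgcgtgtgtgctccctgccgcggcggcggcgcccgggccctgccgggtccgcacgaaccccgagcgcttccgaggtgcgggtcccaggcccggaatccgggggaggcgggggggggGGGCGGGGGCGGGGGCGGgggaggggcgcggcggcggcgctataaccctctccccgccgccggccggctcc
PDGFRB, chr5:150155846-150156095, minus strand: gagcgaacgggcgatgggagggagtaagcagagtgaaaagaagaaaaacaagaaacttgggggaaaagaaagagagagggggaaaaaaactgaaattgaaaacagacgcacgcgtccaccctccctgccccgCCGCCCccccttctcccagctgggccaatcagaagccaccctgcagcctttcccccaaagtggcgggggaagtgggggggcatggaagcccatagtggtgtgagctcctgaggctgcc
KDR, chr4:55125596-55125845, minus strand: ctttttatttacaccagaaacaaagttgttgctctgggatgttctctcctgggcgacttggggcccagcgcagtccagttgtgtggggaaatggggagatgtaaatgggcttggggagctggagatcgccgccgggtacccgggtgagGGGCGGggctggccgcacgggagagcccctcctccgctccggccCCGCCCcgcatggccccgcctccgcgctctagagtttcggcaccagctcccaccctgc
The GC content was 58.4% for the PDGFRB window and 65.2% for the KDR window, and the median over 35116 windows of all genes was 58.0%. GGGCGG, searched on both strands, was present in 10 of the 11 windows and in 42.6% of all windows. CAGAC, which contains the SMAD-binding element core, was present in 4 of the 11 windows and in 38.0% of all windows. ACGTG, the core of the hypoxia response element, was in 0 of the 11 windows and in 18.5% of all windows. VEGFA, with no window, was not searched for it. CACCTG, an E-box, was in 3, all of them PDGFA windows, and in 17.5% of all windows. TGANTCA, the AP-1 motif, was in 1 and in 6.57%, and GTCTAGAC in 0 and in 0.182%. These counts are of windows, and PDGFA and PDGFRA had more than 1 each. These matches describe letters in the windows only.

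The 3 PDGF ligands rose with TGFβ at both times. PDGFA, which encodes the A chain (chr7:536895-559933, minus strand, hg19), was at 302 and 211 normalized counts in the SB libraries, 1209 and 1235 at 3 days, and 1570 and 1322 at 7 days. The TGFβ libraries lay above both SB libraries and the SB and TGFβ groups did not overlap. PDGFA rose 4.83-fold by 3 days, a log2 difference of 2.27 (SE 0.16, adjusted p = 8.03e-07), and by 7 days the log2 difference had reached 2.51 (SE 0.16, adjusted p = 1.38e-07). RNA was measured in bulk, so fewer cells of a type and less RNA per cell cannot be told apart, here and below. The 7-day value exceeded the 3-day value by 0.24 (95% interval -0.11 to 0.58), which did not pass the threshold (limma, adjusted p = 0.274).

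PDGFC, encoding a latent ligand that is activated when its CUB domain is cleaved off (chr4:157681606-157892951, minus strand, hg19), was the most abundant PDGF transcript in SB, with 828 and 744 normalized counts. It reached 2119 and 1892 at 3 days and 1651 and 1774 at 7 days. Here too no SB library reached any TGFβ library, but the higher level was that of 3 days. The log2 differences from SB were 1.35 (SE 0.11, limma adjusted p = 1.95e-06) and 1.12 (SE 0.11, adjusted p = 4.25e-06), and the change from 3 to 7 days was -0.23 (95% interval -0.46 to 0.0056, adjusted p = 0.122).

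PDGFB, whose product binds both receptors (chr22:39619364-39640987, minus strand, hg19), was far scarcer, with 3 and 6 normalized counts in SB, 31 and 25 at 3 days, and 52 and 27 at 7 days. All TGFβ libraries were above the SB libraries, and the 2 TGFβ groups overlapped. The summed counts rose from 9 in SB to 56 at 3 days, a ratio of 6.22 (exact 95% interval 3.05 to 14.3, covering counting error only and treating normalized counts as reads). The ratio at 7 days was 8.78 (4.40 to 19.9). On the log2 scale the differences were 2.45 (SE 0.42, limma adjusted p = 0.00106) and 2.86 (SE 0.42, adjusted p = 0.000147), on a scale that understates the change of low genes because 1 was added before the log.

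**Figure D1:**
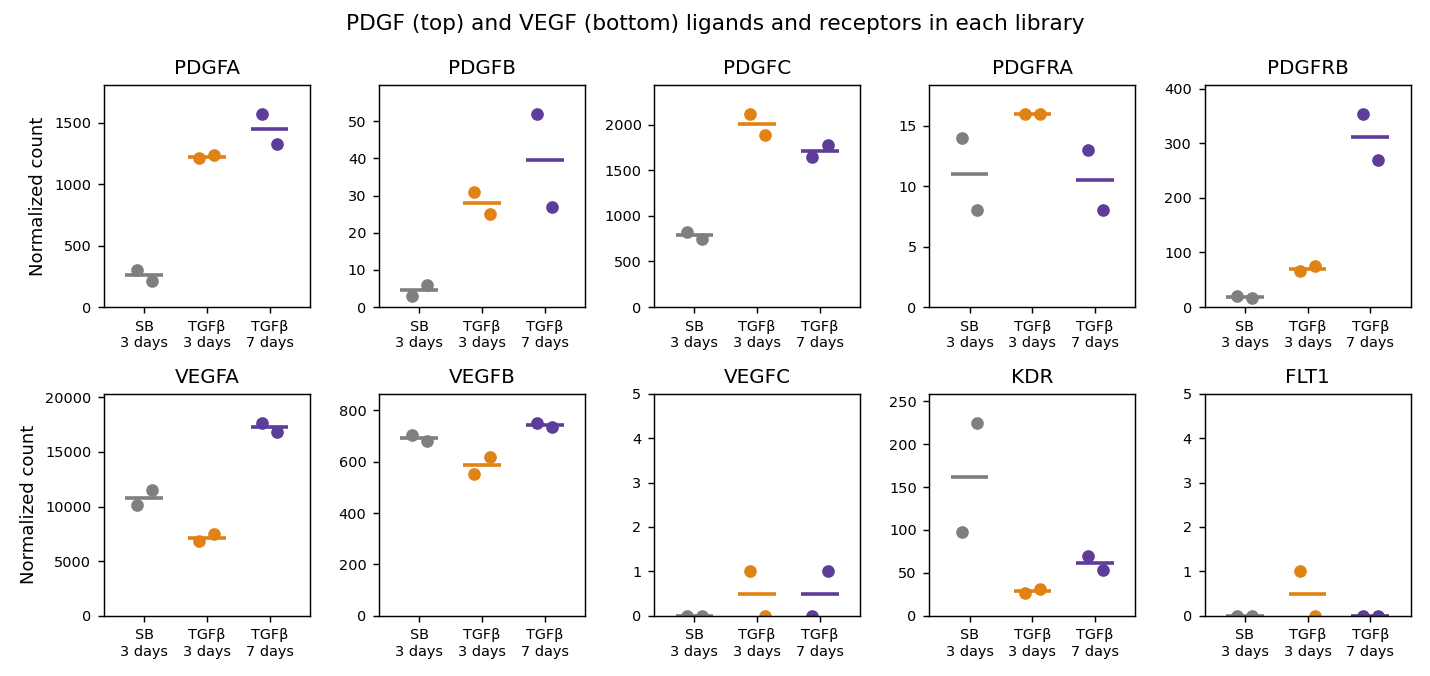
Normalized counts of each gene in every library on linear axes that differ between panels, with points for single libraries of the SB, TGFβ 3-day and TGFβ 7-day groups and lines for group means. PDGFRB rises from 17 and 21 in SB to 270 and 354 at 7 days, VEGFA is lowest at 3 days and highest at 7 days, and VEGFC and FLT1 stay at 0 or 1.

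The receptors for these ligands diverged. PDGFRB (chr5:149493402-149535435, minus strand, hg19), the receptor of the B and D chains, was at 21 and 17 normalized counts in SB, 66 and 75 at 3 days, and 354 and 270 at 7 days. The group means were 19 ± 2.83, 70.5 ± 6.36 and 312 ± 59.4 (SD, n = 2), and no groups overlapped at either step. The log2 difference was 1.84 (SE 0.23, limma adjusted p = 9.11e-05) at 3 days and 3.96 (SE 0.23, adjusted p = 6.70e-08) at 7 days, the latter 15.6-fold. It also rose between 3 and 7 days by 2.12 (95% interval 1.62 to 2.62, adjusted p = 7.62e-05), a 4.35-fold change.

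PDGFRA (chr4:55095447-55164412, plus strand, hg19), the receptor of the A and C chains, stayed low, at 14 and 8 normalized counts in SB, 16 and 16 at 3 days, and 13 and 8 at 7 days. The SB and 7-day libraries overlapped, and the 3-day libraries lay just above them. Its differences from SB were 0.55 (95% interval -0.39 to 1.48, limma adjusted p = 0.369) and -0.05 (-0.98 to 0.88, adjusted p = 0.930). At 7 days a fall of up to 0.98 or a rise of up to 0.88 therefore lay within the interval. In GENCODE, another protein-coding model on the same strand shares 1533 exon bases with PDGFRA, and its part in the count was not tested. Per kilobase of the canonical transcript, PDGFRB stood at 1.68 and 2.38 times PDGFRA in the SB libraries, 4.62 and 5.25 times at 3 days, and 30.5 and 37.8 times at 7 days. The ratio was higher in both 7-day libraries than in any other library. This ratio is a description with no test.

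Of the VEGF ligands, VEGFA fell and then rose relative to SB, VEGFB changed little and VEGFC was at or near 0. VEGFA (chr6:43737921-43754224, plus strand, hg19) was the most abundant of the 10 genes, at 10129 and 11475 normalized counts in SB, 6811 and 7487 at 3 days, and 17681 and 16845 at 7 days. The 3-day libraries were below both SB libraries and the 7-day libraries above them, with no overlap. VEGFA fell by 0.59 at 3 days on the log2 scale (SE 0.09, limma adjusted p = 0.000368) and rose by 0.68 (SE 0.09, adjusted p = 5.80e-05) at 7 days. Between 3 and 7 days it rose by 1.27 (95% interval 1.08 to 1.47, adjusted p = 4.99e-06), or 2.42-fold. VEGFA shares 188 exon bases with an antisense lncRNA model, and where counting does not use strand, reads from the pair cannot be told apart.

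VEGFB (chr11:64002056-64006736, plus strand, hg19), a ligand of FLT1, was at 703 and 682 normalized counts in SB, 553 and 620 at 3 days, and 752 and 735 at 7 days, with the 3-day libraries lowest. It did not pass the threshold against SB at 3 days (-0.24, 95% interval -0.49 to 0.01, limma adjusted p = 0.136) or at 7 days (0.10, -0.15 to 0.35, adjusted p = 0.469). It rose by 0.34 between 3 and 7 days (0.09 to 0.59, adjusted p = 0.0376), and this call was lost with no filter on low values (adjusted p = 0.0551) and without any 1 of the 4 TGFβ libraries (adjusted p = 0.0590 to 0.247). VEGFC (chr4:177604689-177714076, minus strand, hg19), the lymphatic ligand, was at 0 or 1 in every library, with a sum of 2 over the 6 libraries. A count of 3 reads in a library would be 2.69 to 3.30 normalized counts, and no difference below this level can be seen for VEGFC.

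Of the VEGF receptors, KDR fell and FLT1 was not detected above the counting limit. KDR (chr4:55944648-55991762, minus strand, hg19), the signalling receptor of VEGFA, was at 98 and 225 normalized counts in SB, 26 and 31 at 3 days, and 70 and 53 at 7 days. Both TGFβ groups were below both SB libraries, and the 3-day group was lowest, but the SB libraries stood far apart. KDR fell by 2.35 at 3 days on the log2 scale (SE 0.34, limma adjusted p = 0.000290) and by 1.27 at 7 days (SE 0.34, adjusted p = 0.00766). It rose by 1.07 between 3 and 7 days (95% interval 0.33 to 1.82, adjusted p = 0.0310). Without the SB library at 225, the 7-day fall was -0.68 and did not pass (adjusted p = 0.0726), nor did it without the second 7-day library (adjusted p = 0.0608) or with no filter on low values (adjusted p = 0.0675). The fall at 3 days passed with any single library left out, but its size ranged from -2.94 without the first SB library to -1.75 without the second. The rise from 3 to 7 days was lost without either 7-day library or without 3-day replicate 1 (adjusted p = 0.0611 to 0.172), and with no filter on low values (adjusted p = 0.148). FLT1 (chr13:28874483-29069282, minus strand, hg19) had a sum of 1 over the 6 libraries. PDGFRA and KDR lie 780 kb apart on chromosome 4, and PDGFRA passed in none of the comparisons while KDR passed in all 3.

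**Figure D2:**
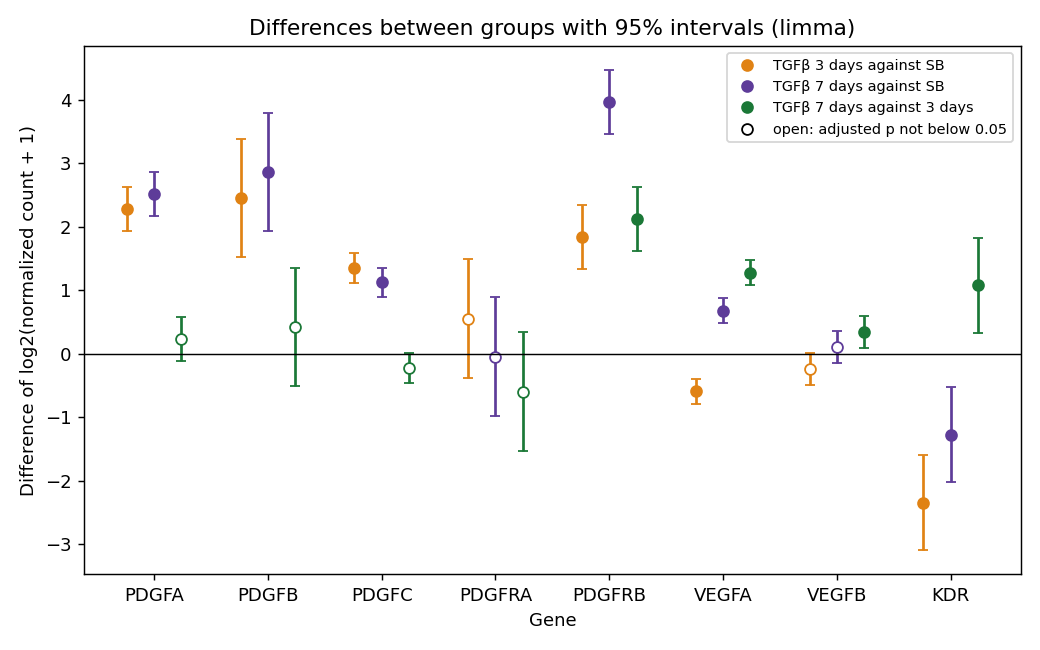
Differences of log2(normalized count + 1) between groups with 95% intervals from limma, by gene and comparison. Filled points have an adjusted p below 0.05. PDGFRB reaches 3.96 at 7 days against SB, and VEGFA changes from -0.59 to 0.68.

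Counted across the 8 tested genes, 6 were called at 3 days against SB, 4 higher and 2 lower, while 29.0% of all 14395 genes were called (14.9% higher and 14.0% lower). Scaling the libraries to equal totals turned the split over all genes from 2149 higher and 2021 lower to 1819 and 2552, with the calls of the 8 genes in that comparison in the same directions. At 7 days against SB, 6 were called, 5 higher and 1 lower, against a background of 54.5% (27.7% higher and 26.9% lower). Between 3 and 7 days, 4 were called and all 4 were higher, against 33.2% of all genes (17.0% higher, 16.2% lower). The same count of 6 therefore stood against a larger share of all genes at 7 days than at 3 days. These counts, and the medians and overlaps that follow, include PDGFB, which passed the filter only through the TGFβ groups. It was called higher against SB at both times, so both counts of rises against SB are smaller without it. The median log2 differences of the 8 genes were 0.95, 0.90 and 0.38, against -0.02, -0.0008 and 0.02 over all genes tested. Groups did not overlap for 8, 7 and 7 of the 8 genes, while 63.2%, 77.5% and 69.1% of all genes did not overlap. Both comparisons against SB used the same SB libraries.

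Levels of different genes were next compared per kilobase of the canonical transcript, whereas the abundances named above were normalized counts without regard to length. VEGFA was highest in all 3 groups, at 2993 normalized counts per kilobase in SB, 1981 at 3 days and 4783 at 7 days, above 93.8%, 90.2% and 96.8% of tested genes. In SB it was followed by VEGFB (384), PDGFC (172), PDGFA (93.5), KDR (27.7), PDGFRB (3.33), PDGFRA (1.72) and PDGFB (1.21), and only PDGFRA and PDGFB overlapped among neighbours in that order. At 3 days PDGFA (446) and PDGFC (439) overlapped and stood above VEGFB (325), while KDR (4.89) had come below PDGFRB (12.4) and PDGFB (7.51). At 7 days VEGFA was followed by PDGFA (527), VEGFB (412), PDGFC (375) and PDGFRB (54.7), and then by PDGFB (10.6), which overlapped KDR (10.5). Of the 8 tested genes PDGFRA was lowest in both TGFβ groups, at 2.51 and 1.65. PDGFRB went from above 2.95% of tested genes in SB to 22.7% at 7 days, and KDR from 16.7% to 7.82%. With the union of all exons as the length, VEGFA remained highest (749, 495 and 1196), but PDGFA came below both PDGFC and VEGFB at 3 days (266, against 334 and 298) and below VEGFB at 7 days (315 against 377). The order of PDGFA among these ligands with TGFβ therefore depended on the length used.

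The make-up of the PDGF ligand pool, summed per kilobase over PDGFA, PDGFB, PDGFC and PDGFD, shifted from PDGFC to PDGFA. PDGFC made up 58.1% to 61.1% of the pool in SB, 46.8% to 50.1% at 3 days and 37.9% to 43.8% at 7 days. PDGFA went from 28.9% to 35.3% in SB, through 47.6% to 50.9%, to 54.4% to 60.0%. PDGFB held 0.258% to 1.46% over all libraries, and PDGFD held 6.27% to 9.39% in SB and 0.601% to 0.970% at 7 days. The pool itself was 266 to 312 normalized counts per kilobase in SB, 885 to 926 at 3 days and 886 to 954 at 7 days. In the VEGF pool of VEGFA, VEGFB, VEGFC and PGF, VEGFA held 82.3% to 83.4% in SB, 74.5% to 74.8% at 3 days and 85.1% to 85.6% at 7 days. PGF held 13.0% to 13.2% at 3 days and 6.33% to 7.68% in the other groups. By the union of exons, a length tried after seeing the data, VEGFA held 62.5% to 65.3% in SB, 55.0% to 55.4% at 3 days and 70.4% to 70.6% at 7 days. By that length PDGFC held 62.1% to 63.9%, 52.3% to 55.5% and 43.3% to 49.4% of the PDGF pool, and PDGFA 23.7% to 29.6%, 41.4% to 44.6% and 48.2% to 53.8%. These shares are a description with no test.

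**Figure D3:**
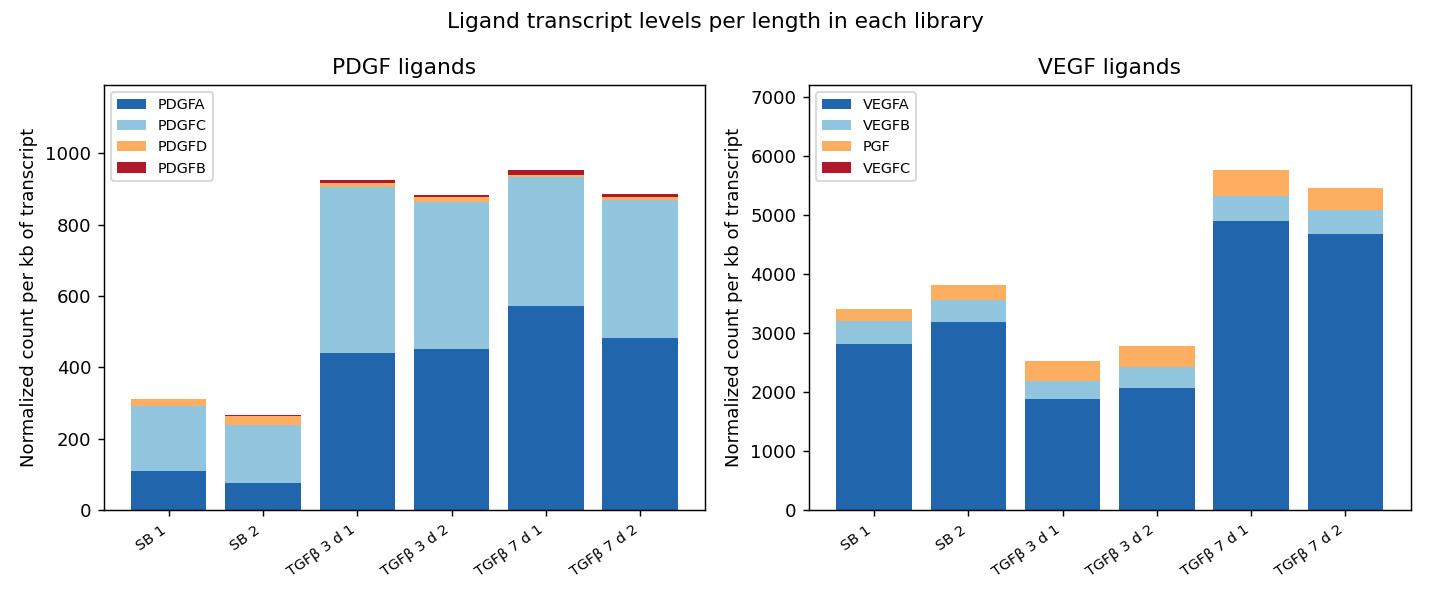
Stacked normalized counts per kilobase of transcript for the PDGF ligands (left) and the VEGF ligands (right) in each of the 6 libraries. The PDGF pool is 266 to 312 in SB and 885 to 954 with TGFβ. PDGFC holds 58.1% to 61.1% of the PDGF pool in SB and 37.9% to 43.8% at 7 days, and VEGFA holds 74.5% to 85.6% of the VEGF pool by canonical transcript length and 55.0% to 70.6% by the union of exons.

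Other genes that make, carry or control these signals were counted as whole lists of 60 genes, of which 55 were tested. At 3 days 29 were called (20 higher, 9 lower), at 7 days 38 (30 higher, 8 lower), and between 3 and 7 days 29 (23 higher, 6 lower). PCSK5, ADAMTS3 and ANKRD37 had SB means below 10 and passed the filter only through the TGFβ groups, so the filter favoured rises. PCSK5 and ADAMTS3 are counted as higher against SB at both times, and ANKRD37 was not called. The shares of all genes called were 29.0%, 54.5% and 33.2%.

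Of 7 other ligands, receptors and co-receptors of the families, 6 were tested, and 4, 6 and 4 were called in the 3 comparisons. Of all genes, 29.0%, 54.5% and 33.2% were called. PDGFD, a PDGFRβ ligand, was at 75 and 96 normalized counts in SB, 51 and 52 at 3 days, and 22 and 33 at 7 days, and fell by 1.62 at 7 days (limma adjusted p = 0.000363) but not past the threshold at 3 days (-0.71, adjusted p = 0.0709). PGF, a FLT1 ligand, rose from 376 and 442 normalized counts in SB to 570 and 640 after 3 days of TGFβ, by 0.57 (adjusted p = 0.00888). By 7 days it was at 769 and 653, a rise of 0.80 (adjusted p = 0.000431). FLT4, the VEGFC receptor, fell from 102 and 102 to 47 and 48 and then to 24 and 25, by 1.09 (adjusted p = 0.00447) and 2.01 (adjusted p = 2.26e-05). Together with KDR, FLT4 made 2 VEGF receptors lower in both TGFβ groups. PDGFRL, a PDGFR-like protein, fell from 102 and 197 to 17 and 23 and to 22 and 20, by 2.78 (adjusted p = 6.27e-05) and 2.70 (adjusted p = 3.48e-05). The co-receptors NRP1 and NRP2, which also bind semaphorins, were abundant. NRP1 was at 25802 and 26591 in SB, 25497 and 24829 at 3 days and 38137 and 40496 at 7 days, with a rise of 0.59 by day 7 (adjusted p = 5.57e-05), while the 3-day difference of -0.06 did not pass (adjusted p = 0.614). NRP2 was at 4177 and 6453, 14034 and 14262, and 25218 and 25227, with rises of 1.45 (adjusted p = 2.03e-05) and 2.28 (adjusted p = 1.86e-07). VEGFD, listed under its older symbol FIGF, was at 0 to 2 and not tested.

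Ligand processing enzymes were examined because PDGFC and PDGFD are secreted as latent forms and VEGFC requires proteolysis. Of 9 genes, 8 were tested. At 3 days 4 were higher and 2 lower, at 7 days 5 higher and 2 lower, and between 3 and 7 days 5 higher and 1 lower. Of all genes, 14.9%, 27.7% and 17.0% were called higher and 14.0%, 26.9% and 16.2% lower. PCSK5 and ADAMTS3 had SB means below 10 and passed the filter only through the TGFβ groups. Without them 2 were higher and 2 lower at 3 days, 3 and 2 at 7 days, and 4 and 1 between the times, of 6 tested. FURIN, a proprotein convertase, rose by 1.42 at 3 days (limma adjusted p = 8.02e-06), and PCSK5, another convertase, rose by 2.18 at 7 days (adjusted p = 0.000377). PLAT, the tissue plasminogen activator that activates PDGF-CC, fell by 1.54 within 3 days (adjusted p = 1.06e-06). It then rose by 0.37 between 3 and 7 days (adjusted p = 0.0257) and stood 1.17 below SB at 7 days (adjusted p = 4.52e-06). CCBE1, an extracellular cofactor of VEGFC cleavage, fell by 1.95 and 3.88, and ADAMTS3, the protease it works with, rose by 1.27 and 2.47 (adjusted p = 0.0414 and 0.000406). ST14, a membrane serine protease, rose by 0.67 between 3 and 7 days (adjusted p = 0.0290).

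Of 24 signalling adaptors and effectors of these receptors, 10 were called at 3 days (9 higher, 1 lower) and 15 at 7 days (14 higher, 1 lower). Between 3 and 7 days 8 were called (6 higher, 2 lower). Of all genes, 29.0%, 54.5% and 33.2% were called in these comparisons. SH2D2A, an adaptor that binds KDR, rose by 2.60 within 3 days (limma adjusted p = 1.99e-05) and stood 2.52 above SB by day 7 (adjusted p = 1.13e-05). RASA1, a Ras GTPase-activating protein that binds activated PDGFRβ, rose by 1.20 and 1.50 (adjusted p = 2.34e-06 and 1.53e-07). SHB, an adaptor of PDGF and VEGF receptors, fell by 0.88 and 1.49 (adjusted p = 0.000959 and 7.59e-06). Between 3 and 7 days GAB1 rose by 0.59 and SOS1 by 0.51, and SHB and YES1 fell by 0.61 and 0.30.

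The oxygen-sensing genes were listed because VEGFA is a target of HIF. Of 8 control genes, 7 were tested and 4, 3 and 5 were called, beside 29.0%, 54.5% and 33.2% of all genes. EPAS1, encoding HIF2α, was at 5161 and 6608 normalized counts in SB, 2052 and 2160 at 3 days and 1433 and 1395 at 7 days, and fell by 1.47 (limma adjusted p = 1.71e-06) and 2.05 (adjusted p = 4.61e-08). HIF1A fell by 0.42 at 3 days (adjusted p = 0.00293) and rose by 0.41 between 3 and 7 days (adjusted p = 0.00389). ARNT, the partner of both, rose by 0.32 (adjusted p = 0.0159) and 0.73 (adjusted p = 2.90e-05). EGLN1 fell by 0.30 at 3 days (adjusted p = 0.0336), EGLN3 rose by 0.82 between 3 and 7 days (adjusted p = 0.00720), and VHL rose by 0.35 in that comparison (adjusted p = 0.0373). HIF1AN passed in none of the comparisons, and EGLN2 was listed at 0 to 2. Of 12 hypoxia target genes 10 were tested, while CA9 (0 to 5) and ADM (2 to 11) had means below 10 and were not. At 3 days 5 were called (4 higher, 1 lower) and at 7 days 7 (6 higher, 1 lower), beside 29.0% and 54.5% of all genes. Between 3 and 7 days 6 were called, all 6 higher, and 4 were not, while 17.0% of all genes were called higher. PFKFB4, a glycolytic regulator, rose by 1.32 and 2.72, and NDRG1 rose by 1.09 and 1.31. BNIP3, a mitophagy receptor, fell by 0.88 and 0.46. P4HA1, a collagen prolyl hydroxylase subunit, rose by 0.75 between 3 and 7 days (adjusted p = 0.000385). VEGFA was higher at 7 days than at 3 days, while EPAS1 was lower at 7 days than at 3 days, by 0.57 (limma adjusted p = 0.00296). Any link between VEGFA and the genes of these lists was not tested.

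**Figure D4:**
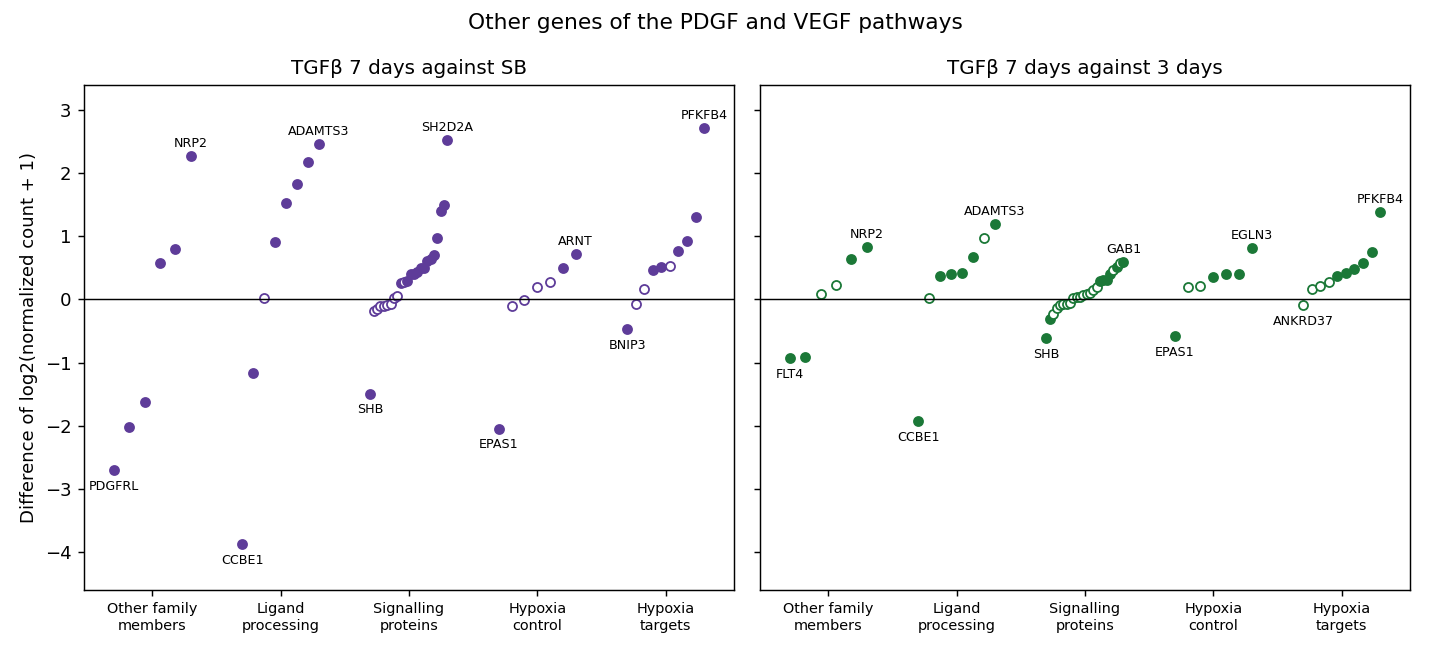
Difference of log2(normalized count + 1) for each of the 55 tested genes of the 5 lists, at 7 days against SB (left) and at 7 days against 3 days (right). Filled points have an adjusted p below 0.05, and the genes at both ends of each list are named, among them CCBE1 at -3.88 and PFKFB4 at 2.72 on the left.

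Genes with the closest profiles were sought for the 3 most variable genes with means of at least 100, by Euclidean distance between centred log2 values over the 6 libraries among 11389 genes. PAPPA2 (0.31), TCF7 (0.44) and TBX18 (0.56) were nearest to PDGFRB. PTPRR (0.26), LAPTM5 (0.27) and TRHDE (0.34) were nearest to PDGFA, and DAAM1 (0.14), LRRC8C (0.18) and PSMD2 (0.20) to PDGFC. These distances are descriptions with no test.

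Because KDR, FLT1, PDGFRA and PDGFRB are used as markers of endothelial and mesenchymal cells, the markers of those cell types were read beside them. The lung adenocarcinoma markers (8 genes, with EPCAM and NKX2-1 among them) were present in every library, with sums of 106306 to 117973 in SB, 99507 to 111740 at 3 days and 90183 to 102987 at 7 days. Of these 8, 5 were lower and 1 was higher against SB at 3 days and at 7 days alike, beside 29.0% and 54.5% of all genes called. CDH1, the epithelial cadherin, fell from 371 and 635 in SB to 10 and 9 at 7 days, and KRT7, a keratin, rose from 5860 and 6183 to 13979 and 11230. Of 12 fibroblast and pericyte markers, which include PDGFRA and PDGFRB, the sums were 2061 to 2375 in SB, 2266 to 2610 at 3 days and 3082 to 3608 at 7 days, while DCN, LUM, COL3A1 and KCNJ8 stayed at 0 or 1 in every library. Of the 8 tested, 1 was called at 3 days (PDGFRB itself), 5 at 7 days (3 higher, 2 lower) and 6 between 3 and 7 days (4 higher, 2 lower), beside 29.0%, 54.5% and 33.2% of all genes. At 7 days against SB the 3 higher were PDGFRB, COL1A1 and CSPG4, and the 2 lower were RGS5 and ABCC9. The collagen gene COL1A1 went from 196 and 250 to 581 and 457, and CSPG4 from 889 and 1088 to 1734 and 1494. RGS5 went from 513 and 439 to 325 and 347, and ABCC9 from 23 and 19 to 6 and 6. Of 12 endothelial markers, the sums were 624 to 685, 990 to 1126 and 1115 to 1263, and CLDN5 (0 to 1), EMCN (0 to 4) and VWF (3 to 13) were near 0. Of the 8 tested, 6 rose at 3 days and 6 at 7 days, beside 14.9% and 27.7% of all genes called higher. TIE1 and ROBO4 passed the filter only through the TGFβ groups, while CDH5 and VWF did not pass it, so the filter favoured a rise, and without TIE1 and ROBO4 the count was 4 of 6 at each time. CDH5 was at 14 and 20 in SB and at 0 to 5 with TGFβ. TIE1 and TEK, the angiopoietin receptor family, rose from 1 and 0 to 51 and 40 and from 11 and 12 to 115 and 117 at 7 days. The part of such cells in the results on the receptors was not tested.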

How the data were processed

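RNA from 6 H2087-LCC libraries (3 groups of 2) was analysed. The authors prepared polyA libraries with a TruSeq kit, checked paired reads with FastQC 0.11.5, aligned them to hg19 using STAR, counted uniquely mapped reads per gene in HTSeq 0.6.1p1 and normalized the counts by library size with DESeq2. The deposited values are whole numbers and were treated as a score, that is, normalized counts rounded by the authors, so that no count model was fitted to them. The annotation release is not given in the sources used here. Of 21293 genes, 1316 were at 0 in every library.

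Differences of log2(value + 1) were tested with limma 3.58.1 in R 4.3.3 (moderated variances that follow mean expression), over 14395 genes with a mean of at least 10, with group as the only term, all 6 libraries in the fit and Benjamini-Hochberg adjustment. This leaves 3 residual degrees of freedom. An exact permutation test of 2 against 2 libraries cannot go below p = 0.333 and was not used. On simulated data for 3 days against SB (14372 genes), 95 of 100 genes changed 2-fold and 97 of 100 changed 4-fold were called, with 27 unchanged genes called. The simulation gave every gene and group the same dispersion and changed few genes. In the real data the SB replicates differed more than the others, so these rates do not give the power of this study. One read was worth 0.896 to 1.10 normalized counts, which puts depth at an estimated 32.0 to 40.0 × 1e6 assigned reads per library.

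The genes and lists were chosen with earlier results of these data known. Other genes were named as whole lists (other family members and oxygen-sensing control genes) or, in each other list, as the 2 called genes with the widest rise and the 2 with the widest fall in each comparison. CA9, ADM and ANKRD37 were named apart from this rule, because of the filter on low values. Profiles nearest to a gene were named for the 3 genes with the widest range of group means among those with a mean of at least 100. Marker genes singled out were chosen after their values were seen. Coordinates and transcript lengths came from GENCODE on GRCh37 (hg19), where 18206 symbols matched, and promoters from RefSeq on GRCh38.p14. Levels per kilobase used the canonical transcript. Alternatives were pseudocounts of 0.5 and 5, no filter, a minimum mean of 50, size factors by median of ratios, equal library totals, no trend, a fit without the third group, a block for replicate number, and each library left out.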

Additional observations from a re-analysis of the deposited data

Results flagged for a closer look

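For 4 genes the difference from SB at 7 days differed from that at 3 days, tested as the contrast of the TGFβ groups, since both differences use the same SB libraries. The 7-day difference exceeded the 3-day difference by 2.12 on the log2 scale for PDGFRB (limma adjusted p = 7.62e-05), which was higher than SB at both times, and by 1.27 for VEGFA (adjusted p = 4.99e-06), which was lower than SB at 3 days and higher at 7 days. The excess was 1.07 for KDR (adjusted p = 0.0310), which was lower than SB at both times, and 0.34 for VEGFB (adjusted p = 0.0376). Both 7-day libraries were above both 3-day libraries for each of the 4 genes. The calls of KDR and VEGFB were lost under some alternatives. The length of TGFβ treatment and the time in culture cannot be told apart in this contrast.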

How the results depend on the processing

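Of 354 alternative values for the 8 tested genes, 336 kept their direction and side of the threshold, 15 no longer passed and 3 changed sign. The calls of PDGFA, PDGFB, PDGFC, PDGFRB and VEGFA against SB, and of PDGFRB and VEGFA between 3 and 7 days, held under every alternative that tested them, and a mean of at least 50 left PDGFB and PDGFRA untested. Between 3 and 7 days, the genes called fell from 4 to 2 with no filter on low values and to 2 without the trend, and ranged from 2 to 4 with 1 library left out. The share of all genes called there moved from 33.2% to 15.2% with no filter, 21.7% without the trend, and 16.0% to 38.8% with 1 library left out. Those lost were VEGFB (adjusted p = 0.0551 and 0.0592) and KDR (0.148 and 0.104). The number was 2 without the first 3-day library or either 7-day library. The other genes of the lists called in that comparison fell from 29 to 17 with no filter and 16 without the trend, and ranged from 11 to 34 with 1 library left out, the lowest without the second 7-day library. At 3 days against SB they ranged from 19 to 26 against 29, the lowest without the second 3-day library. The changes of sign were in values that never passed. PDGFB between 3 and 7 days ranged from -0.043 without the first 7-day library to 0.88, and PDGFRA at 7 days against SB from -0.42 to 0.32, with 0.27 without the second 7-day library. The causes were not tested.

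Equal replicate numbers did not consistently pair the libraries, with correlations of deviations of 0.21, -0.13 and -0.65 between groups. The -0.65, between the 3-day and 7-day groups, means that many genes deviated together in these groups with the numbers reversed. A block for equal numbers does not take this up, and its cause was not tested. With the replicate number as a block, 3943, 7546 and 4485 of all genes were called against 4170, 7851 and 4775, and VEGFB between 3 and 7 days was lost (adjusted p = 0.0672). Equal library totals shifted the median of all genes to -0.08 at 3 days against SB and turned the split of calls from 2149 higher and 2021 lower to 1819 and 2552, and no call of the 8 genes changed direction. VEGFC and FLT1 lay under the limit of 3 counts in every library.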
